A study of Mus musculus with 6 samples.

Results

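The outer segment disc and matrix genes are 10 genes for proteins that build the light-sensing outer segment of photoreceptors and the matrix around it: Prph2, Rom1, Rp1, Prom1, Cdhr1, Abca4, Tulp1, Fscn2, Impg1 and Impg2. They were chosen by name, and every probe set (the group of probes that reads 1 transcript on the array) that the platform annotation gives to exactly 1 of them was taken. That rule found 11 probe sets for 9 of the 10 genes, of 45037 probe sets in all, and array values of Impg2 were not analysed here. Rp1 and Impg1 have 2 probe sets each, called the brighter and the dimmer.

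RNA from retinas freed of pigment epithelium was measured on 1-colour Affymetrix arrays. The mice were BALB/c AJ animals aged 40 days after birth. Of 6 arrays, 3 carry the genotype label ko/ko for Nxnl2 and 3 the label wt/wt, and strain, tissue and age are the same in both groups. Nxnl2 encodes a thioredoxin-like protein known as rod-derived cone viability factor 2, and the comparison addresses which retinal transcripts differ without it. The labels do not say how the allele was made, whether a sample pools animals or whether replicates are separate animals, so the p-values rest on a spread between samples that may be technical only. All values are log2 values after RMA, which gives every array nearly the same distribution.

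Photoreceptor outer segments are stacks of membrane discs that are renewed throughout life at their base and shed at their tip. Prph2 and Rom1 are related tetraspanins that hold the curved disc rim, and mice without Prph2 form no outer segments. Prom1 and Cdhr1 act where new discs grow out at the base, Rp1 and Fscn2 belong to the axonemal microtubules and the actin of that region, and Tulp1 serves transport of proteins into the outer segment. Abca4 moves retinal-lipid adducts across the disc membrane, and Impg1 and Impg2 are proteoglycans of the matrix between photoreceptors and pigment epithelium.

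The array labelled knockout replicate 3 went against its label. The brighter Nxnl2 probe set read 3.78 and 3.73 in knockout replicates 1 and 2, 9.21 in the array labelled knockout replicate 3, and 11.38, 11.45 and 11.42 in wild type. Each listed gene was read by its probe set with the highest mean over the 6 arrays, a choice favouring high readings in that array. Of 19 measured rod phototransduction genes, 18 lay more than 2 log2 units below the wild-type mean in that array (3.70% of all probe sets did). Of 17 olfactory and airway epithelium genes, 14 lay as far above in it (5.38% of all). Its summed level of the olfactory and airway list, on the linear scale, was 102457, against 2937 and 3852 in knockout replicates 1 and 2 and 2833 to 3219 in wild type. Among those defining markers Omp read 12.61 there, while Scgb1a1 at 3.32 lay below the array's highest Bacillus control. Its correlation with the other arrays over probe sets was 0.848 to 0.853, against 0.994 to 0.996 among those 5. It is therefore shown by itself, and every comparison of the genotypes is given with it (6 arrays) and without it (5 arrays). Bacillus control probe sets match no mouse transcript, and the highest of 27 read 4.13 to 4.60 across arrays, which marks where a signal cannot be told from background.

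Promoter sequences are shown for Prph2, which differed most between the genotypes in the 5 arrays, for Abca4 and Impg1, which were near or below the Bacillus controls in the array labelled knockout replicate 3, for Rom1, the rim partner of Prph2, which was also low there, and for Cdhr1 and Prom1, which by their brightest probe sets were the least low there. Each runs from 250 bases before to 50 after the start of the gene in RefSeq, build GRCm38.p6, 5′ to 3′. Fscn2, whose reading of 4.21 in that array was closer to the controls than the 4.96 of Abca4, is not shown. Capitals mark GATTA or its reverse complement TAATC, a core bound by OTX-type homeodomain proteins such as CRX, and the longer form TAATCC or GGATTA.
Prph2 promoter, chr17:46910228-46910527, plus strand: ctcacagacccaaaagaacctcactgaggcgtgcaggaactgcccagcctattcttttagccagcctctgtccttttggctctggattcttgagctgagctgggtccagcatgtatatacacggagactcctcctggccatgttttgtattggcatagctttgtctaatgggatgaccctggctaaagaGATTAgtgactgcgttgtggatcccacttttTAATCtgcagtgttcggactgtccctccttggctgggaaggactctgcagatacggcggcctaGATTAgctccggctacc
Abca4 promoter, chr3:122044210-122044509, plus strand: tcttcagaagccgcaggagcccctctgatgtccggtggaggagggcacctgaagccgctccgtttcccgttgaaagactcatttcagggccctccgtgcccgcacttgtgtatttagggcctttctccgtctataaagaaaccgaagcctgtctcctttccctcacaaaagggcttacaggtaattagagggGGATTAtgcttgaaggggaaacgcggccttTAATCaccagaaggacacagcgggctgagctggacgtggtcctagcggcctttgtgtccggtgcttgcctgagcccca
Impg1 promoter, chr9:80465389-80465688, minus strand: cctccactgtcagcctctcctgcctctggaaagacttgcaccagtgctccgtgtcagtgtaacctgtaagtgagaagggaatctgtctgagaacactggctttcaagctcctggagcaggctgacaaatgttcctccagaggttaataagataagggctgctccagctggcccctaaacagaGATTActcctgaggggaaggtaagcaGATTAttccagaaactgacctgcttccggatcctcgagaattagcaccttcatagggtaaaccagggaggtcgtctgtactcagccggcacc
Rom1 promoter, chr19:8929307-8929606, minus strand: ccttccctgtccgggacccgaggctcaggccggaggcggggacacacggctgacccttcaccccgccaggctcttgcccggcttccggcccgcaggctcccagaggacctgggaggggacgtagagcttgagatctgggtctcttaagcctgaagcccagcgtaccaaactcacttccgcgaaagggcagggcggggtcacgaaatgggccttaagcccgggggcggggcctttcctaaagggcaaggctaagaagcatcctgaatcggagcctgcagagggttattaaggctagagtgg
Cdhr1 promoter, chr14:37098298-37098597, minus strand: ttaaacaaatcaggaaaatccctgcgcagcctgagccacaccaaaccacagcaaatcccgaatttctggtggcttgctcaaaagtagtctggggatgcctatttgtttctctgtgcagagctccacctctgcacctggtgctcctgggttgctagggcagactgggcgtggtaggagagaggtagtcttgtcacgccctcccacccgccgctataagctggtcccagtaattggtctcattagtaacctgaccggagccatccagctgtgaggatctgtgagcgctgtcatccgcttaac
Prom1 promoter, chr5:44101687-44101986, minus strand: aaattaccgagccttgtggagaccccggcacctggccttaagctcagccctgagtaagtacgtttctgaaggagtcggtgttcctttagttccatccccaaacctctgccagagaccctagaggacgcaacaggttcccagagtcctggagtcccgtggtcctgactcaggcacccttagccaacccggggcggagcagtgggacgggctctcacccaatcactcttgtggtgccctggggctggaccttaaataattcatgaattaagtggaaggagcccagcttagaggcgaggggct
The table held 10 windows for 9 of the 10 genes, 1 of them a further start of Prom1. These 9 are not the 9 with array values, since Rp1 had no window and Impg2 had 1. GATTA, searched on both strands, was in 6 of these 10 windows, against 22.0% of all 32851 windows of the same length. The longer TAATCC, which contains TAATC, was in 1 of the 10, that of Abca4, against 7.06% of all windows. TGCTGA, part of the element bound by NRL, was in 0 of the 10, against 19.5% of all. The Prph2 window held GATTA or TAATC 3 times, those of Abca4 and Impg1 held it 2 times each, those of Tulp1 and Impg2 and the further Prom1 start held it 1 time each, and those of Rom1, Fscn2 and Cdhr1 and the Prom1 start shown held none. In the array labelled knockout replicate 3 every disc and matrix probe set lay below the other 5 arrays. Being low there therefore cannot set genes with a match apart from genes without one. Whether a match goes with the size of the difference there was not tested. These matches describe letters in the windows, not bound sites.

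In the 5 arrays no disc or matrix transcript passed the test between knockout and wild-type retina, and Prph2 showed the largest difference, in the lower direction. By limma, adjusted over all probe sets, 0 of the 11 probe sets passed 0.05, where 0.0111% of all probe sets did (5 of 45037). Among those 5 were both probe sets of Nxnl2 itself, with log2 changes of -7.67 and -4.33. At an unadjusted p under 0.05 stood 1 of the 11, against 3.05% of all. The median log2 change, knockout minus wild type, was -0.05 over the 11 probe sets and 0.00 over all probe sets, and 9 of the 11 were below 0, as were 48.6% of all probe sets. The 95% confidence interval included 0 for 10 of the 11.

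**Figure D1:**
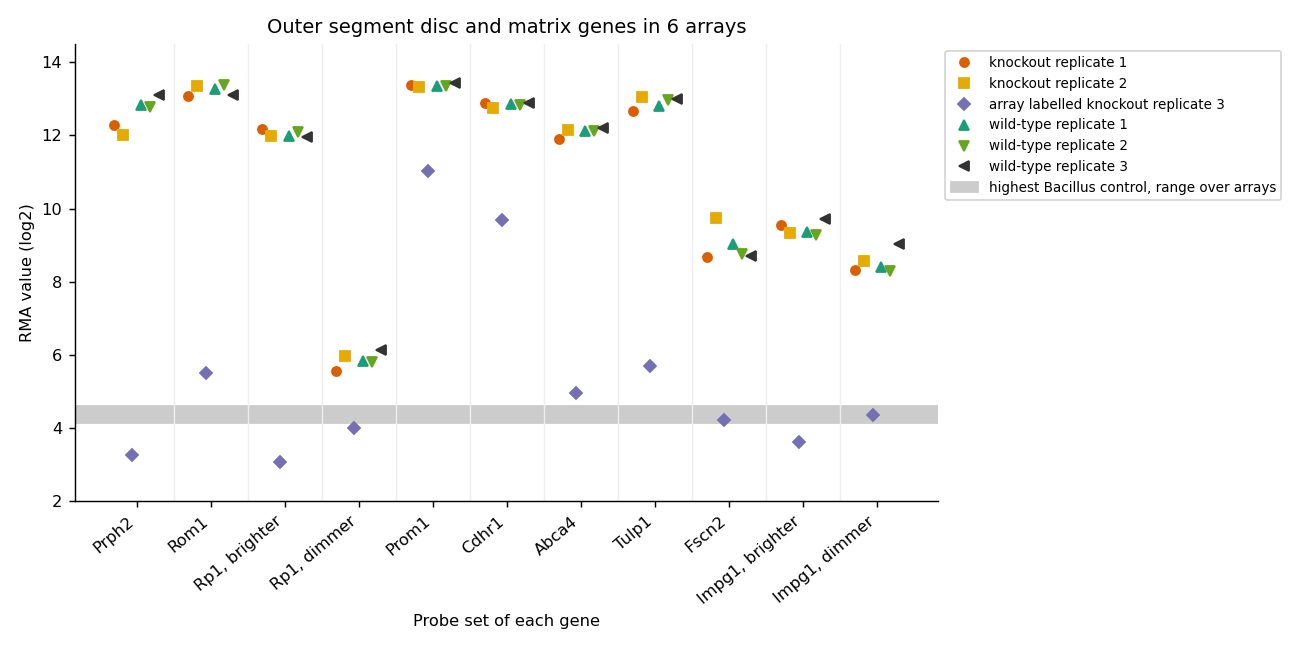
RMA values (log2) of the 11 probe sets, 1 column each, in the 3 knockout-labelled arrays (left in each column) and the 3 wild-type arrays (right). The array labelled knockout replicate 3 (diamonds) lies below the other 5 for every probe set, and Prom1 (11.02) and Cdhr1 (9.70) are the probe sets furthest above the grey band of the highest Bacillus control (4.13 to 4.60).

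Prph2, the peripherin of the disc rim, was the 1 member with no overlap between the genotypes in the 5 arrays. Its probe set read 12.27 and 12.00 in knockout replicates 1 and 2, 3.27 in the array labelled knockout replicate 3, and 12.84, 12.77 and 13.09 in wild type. Both knockout replicates thus lay below all 3 wild-type arrays, a separation in this direction that 7.86% of all probe sets showed. The mean was 12.14 ± 0.20 (SD, n = 2) in knockout and 12.90 ± 0.17 (SD, n = 3) in wild type, a log2 change of -0.77 (SE 0.14, 95% interval -1.08 to -0.45). On the linear scale that is 58.8% of the wild-type level, with an interval of 47.4% to 73.1%. Its unadjusted p by limma (0.000463) was the 18th smallest of all 45037, and the adjusted p = 0.99998, so the difference did not pass. Leaving out any 1 of the 5 arrays gave -0.90 to -0.63, and the lowest adjusted p over all settings tried with the 5 arrays was 0.284, with a variance trend and robust fit. The gene has 1 probe set, so no second reading of the transcript exists on these arrays.

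Rom1, the partner of Prph2 in the disc rim, did not show that separation. It read 13.08 and 13.35 in knockout replicates 1 and 2, 5.50 in the array labelled knockout replicate 3, and 13.27, 13.39 and 13.10 in wild type. Knockout replicate 2 lay inside the wild-type range and knockout replicate 1 just under it. The log2 change was -0.04 (SE 0.13, 95% interval -0.33 to 0.26), which leaves room for 79.4% to 120% of the wild-type level. The difference between the changes of Prph2 and Rom1 was not tested.

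Prom1 and Cdhr1, which act at the base where discs form, had the narrowest intervals of the 11. Prom1 read 13.39 and 13.32 in knockout replicates 1 and 2, 11.02 in the array labelled knockout replicate 3, and 13.35, 13.36 and 13.44 in wild type. Its log2 change was -0.03 (95% interval -0.25 to 0.19), or 84.0% to 114% of wild type. Cdhr1, the photoreceptor cadherin, read 12.88 and 12.74 in knockout replicates 1 and 2, 9.70 in the array labelled knockout replicate 3, and 12.86, 12.84 and 12.89 in wild type. Its wild-type SD of 0.02 was the lowest of the 11, and only knockout replicate 2 lay outside the wild-type range. Its log2 change was -0.05 (95% interval -0.28 to 0.17).

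Of the cytoskeletal members, Rp1 overlapped between the genotypes and Fscn2 was high in 1 array. The brighter Rp1 probe set, for the microtubule-binding protein of the axoneme, read 12.18 and 11.98 in knockout replicates 1 and 2, 3.07 in the array labelled knockout replicate 3, and 11.98, 12.11 and 11.95 in wild type. Its log2 change was 0.07 (95% interval -0.19 to 0.32), and that of the dimmer one was -0.16 (-0.52 to 0.20), so the sign depends on the probe set. Fscn2, the actin-bundling fascin of photoreceptors, read 8.68 and 9.75 in knockout replicates 1 and 2, 4.21 in the array labelled knockout replicate 3, and 9.03, 8.75 and 8.69 in wild type. Knockout replicate 2 was above every other array and knockout replicate 1 below them except for the array labelled knockout replicate 3, which gave Fscn2 the widest interval (log2 change 0.39, SE 0.27, -0.23 to 1.01). Without knockout replicate 2 the Fscn2 change was -0.14. Skeletal muscle transcripts were also highest in knockout replicate 2, with a median over 12 genes of 1.91 from the wild-type mean, while knockout replicate 1 had one of -0.39. Their summed linear level was 608 and 1922 in knockout replicates 1 and 2, against 585 to 755 in wild type, and their part in the Fscn2 value was not tested.

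Tulp1, Abca4 and Impg1 overlapped between the genotypes. Tulp1, needed for transport into the outer segment, read 12.68 and 13.05 in knockout replicates 1 and 2, 5.68 in the array labelled knockout replicate 3, and 12.80, 12.96 and 12.99 in wild type, so that knockout replicates lay on either side of the wild-type range. Its log2 change was -0.05 (95% interval -0.36 to 0.26). Abca4, the disc rim transporter, read 11.90 and 12.14 in knockout replicates 1 and 2, 4.96 in the array labelled knockout replicate 3, and 12.11, 12.13 and 12.20 in wild type. Only knockout replicate 1 was lower than the wild-type arrays, and the log2 change was -0.13 (95% interval -0.38 to 0.12). For the matrix proteoglycan Impg1, the brighter probe set read 9.56 and 9.33 in knockout replicates 1 and 2, 3.61 in the array labelled knockout replicate 3, and 9.36, 9.29 and 9.72 in wild type. The log2 changes of its probe sets were -0.01 (95% interval -0.35 to 0.33) and -0.13 (-0.61 to 0.36), and both knockout values of each lay inside the wild-type range.

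**Figure D2:**
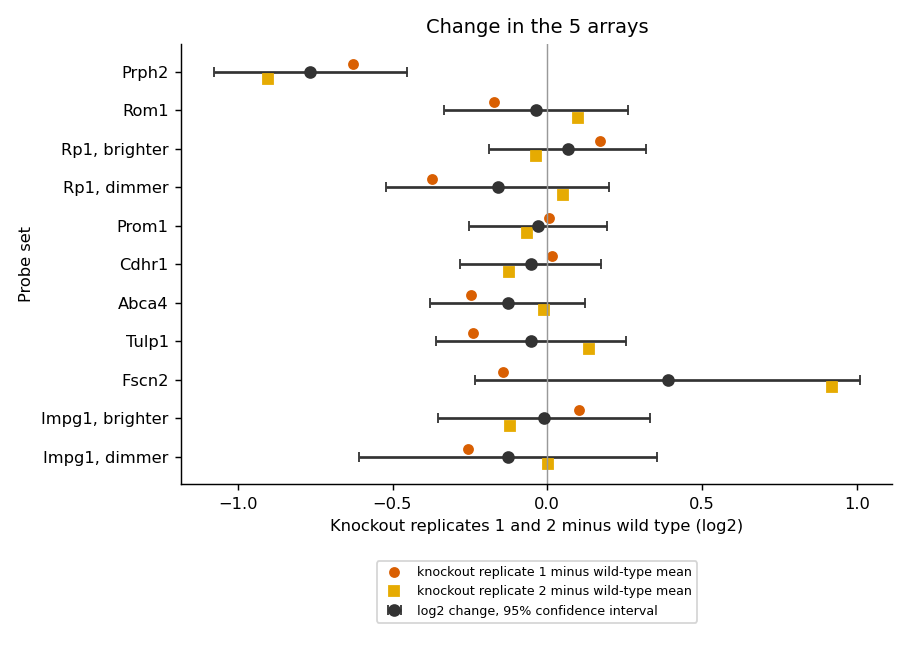
Log2 change of each probe set in the 5 arrays, knockout replicates 1 and 2 minus wild type, with limma's 95% confidence interval (black), and each knockout replicate minus the wild-type mean (coloured). The interval of Prph2 (-1.08 to -0.45) is the 1 that leaves out 0, and the knockout values of Fscn2 lie far apart (-0.14 for replicate 1 and 0.92 for replicate 2).

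Prph2 was the 1 of the 11 probe sets that lay outside the wild-type range on the same side in both knockout replicates. It lay below, as did 7.86% of all probe sets in both replicates. Knockout replicate 1 lay below all 3 wild-type arrays for 6 of the 11 probe sets (26.2% of all probe sets did so) and above them for 1 (23.6% of all). Knockout replicate 2 lay below them for 3 of the 11 (22.7% of all) and above them for 2 (27.6% of all). Tulp1 and Fscn2 were below in knockout replicate 1 and above in knockout replicate 2. Measured from the wild-type mean, knockout replicate 1 had a median over the 11 probe sets of -0.17 and knockout replicate 2 one of -0.01, while the wild-type arrays ranged over -0.03 to 0.06.

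Transcripts of tissue next to the retina also differed between single arrays. Measured from the wild-type mean, 14 pigment epithelium genes had a median of -0.62 in knockout replicate 1, -0.16 in knockout replicate 2 and -0.37 to 0.49 in wild type. Their summed linear level was 8294 and 11164 in knockout, against 9434 to 15479 in wild type. For 13 lens genes that level was 3601 and 4607 in knockout, against 3895 to 29117 in wild type, with the highest in wild-type replicate 2. In the 5-array comparison 13 of the 14 pigment epithelium genes were below 0 (median -0.40), as were 13 of the 13 lens genes (median -0.90). Of all probe sets 48.6% were below 0. Without wild-type replicate 2, where lens and pigment epithelium genes were highest, the Prph2 change was -0.83. The part of lens and pigment epithelium in the Prph2 value was not tested. Microglia genes were higher in knockout replicate 1, with a median of 12 genes at 0.28. Knockout replicate 2 had a median of 0.06, against -0.04 to 0.08 in wild type. In the 5-array comparison 10 of the 12 were above 0 and 2 below (48.6% of all probe sets were below). Of the 12, 0 passed, and 3 had an unadjusted p under 0.05 by limma, against 3.05% of all probe sets. The part of microglia genes in the values above was not tested. Fewer photoreceptors and less RNA per photoreceptor cannot be told apart in whole retina.

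**Figure D3:**
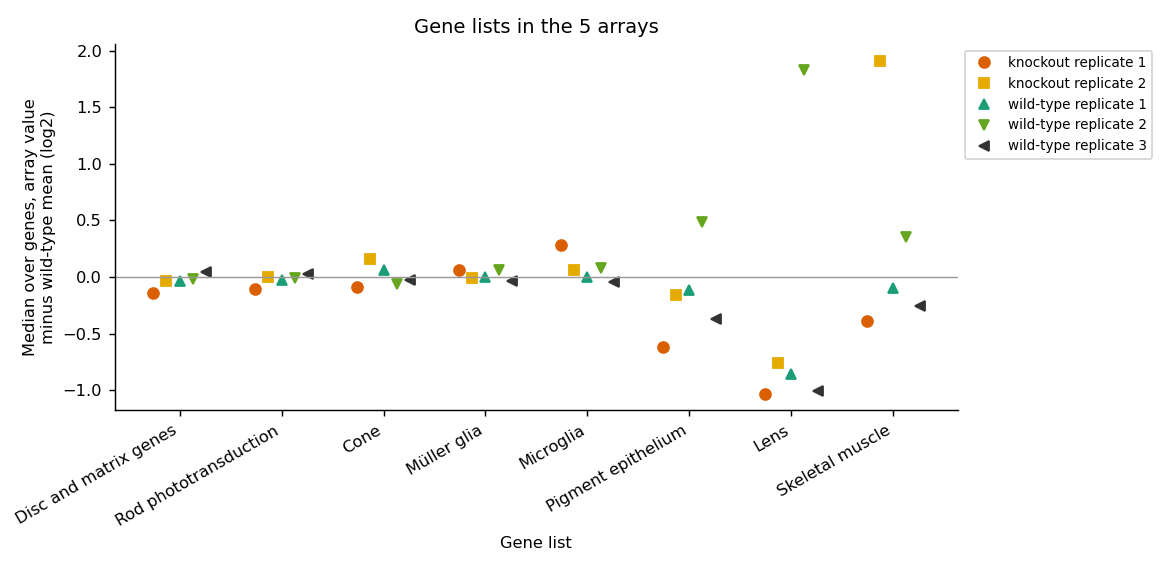
Median over the genes of each list of the array's value minus the wild-type mean (log2), for the 5 arrays, knockout replicates left of wild type. The disc and matrix genes lie between -0.14 and 0.05, lens genes are high in wild-type replicate 2 (1.83) and muscle genes in knockout replicate 2 (1.91).

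Other transcripts of the outer segment and its connecting cilium gave no call in the 5 arrays. Of 30 measured genes of this list, 0 passed in either direction and the median log2 change was -0.03. Of these, 12 were above 0 and 18 below, where 48.6% of all probe sets were below. The smallest p belonged to Nphp4, a transition zone protein, at -0.21 (SE 0.10, unadjusted p = 0.0729 by limma). Next came Rpgrip1, which anchors the GTPase regulator Rpgr in the connecting cilium, at -0.19 (SE 0.12), and then Cc2d2a, of the same zone as Nphp4, at -0.15 (SE 0.10). Both knockout replicates lay below all wild-type arrays for 4 of the 30, against 7.86% of all probe sets. Of 19 rod phototransduction genes 0 passed, 17 were below 0 (48.6% of all probe sets were), the median was -0.07 and 3 were separated in that way. Of 13 matrix and hyaluronan genes 0 passed. Both knockout replicates lay below all wild-type arrays for 2 of them and above for 1. The smallest p of this list belonged to Timp3, at -0.35 (SE 0.16, unadjusted p = 0.0580 by limma). The median log2 change of the 13 was -0.01. That median rests partly on readings not told from background. Hapln1, Has2 and Vcan, with wild-type means of 3.35, 3.46 and 3.82, read below the highest Bacillus control in every wild-type array. Rbp3, the retinoid carrier of the matrix in which Impg1 lies, stood at -0.09 (SE 0.13).

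In the array labelled knockout replicate 3 every disc and matrix probe set lay below the other 5 arrays, but by very different amounts. Of the 11 probe sets, 10 lay more than 2 log2 units below the wild-type mean, where 3.70% of all probe sets did, and 8 lay more than 4 below (0.739% of all). Among all probe sets with a wild-type mean of at least 10, 17.0% lay more than 2 below. The median difference was -5.84 over the 11 probe sets and -0.08 over all. With readings under an array's highest Bacillus control set to that control, the medians were -5.32 and -0.19, and the counts of 10 and 8 stayed the same. The probe set not more than 2 below was the dimmer of Rp1, with a wild-type mean of 5.92 and a difference so bounded of -1.79. The bounded difference of a reading under the control depends on the wild-type level, so the amounts are not wholly comparable between probe sets. Where such a reading enters a difference, it is given as "at least". These are values of 1 array with no replicate and no test.

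The deepest differences were those of Prph2, Rp1 and Rom1. Prph2 lay -9.64 from the wild-type mean, below the array's highest Bacillus control, which makes it at least 437-fold lower. The brighter Rp1 probe set lay -8.94 away, at least 236-fold lower by the same bound. Rom1 was 216-fold lower at 5.50, which is 1.37 log2 units above that control. Tulp1 (150-fold lower) and Abca4 (146-fold lower) also stood a little above it, while the brighter Impg1 probe set was below it and at least 40.0-fold lower. Fscn2 was at least 24.5-fold lower, since its reading of 4.21 was only 0.08 above that control and not told from background.

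Prom1 and Cdhr1 stood apart from these. Prom1 was 5.13-fold lower and Cdhr1 8.98-fold lower than the wild-type mean in that array, and they read 6.89 and 5.57 log2 units above its highest Bacillus control. Prominin 1 is made in many epithelia, and Cdhr1 is also known from mitral cells of the olfactory bulb. Whether either site bears on these readings was not tested.

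Relatives from the same gene families had a median above the wild-type mean in that array. Of 22 measured relatives, 4 lay more than 2 log2 units above the wild-type mean (5.38% of all probe sets did) and 2 as far below. Their median was 0.59, or 0.47 with low readings set to the Bacillus control. Each was read by its probe set with the highest mean over the 6 arrays, a choice that favours high readings in that array. The share covers all probe sets, without that choice. The relatives further than 2 above were Prom2, an epithelial prominin (at least 2.17), the cadherin-related genes Cdhr3 (at least 2.71) and Cdhr4 (at least 3.71), and Dcx, the doublecortin of immature neurons that shares its microtubule-binding domain with Rp1 (4.21). Readings of Prom2 and Cdhr3 in all wild-type arrays, and of Cdhr4 in 1 of them, were under the control. Rp1l1, the photoreceptor relative of Rp1, was at least 85.6-fold lower, and Tub, the neuronal relative of Tulp1, lay -2.16 away. The widely made fascin Fscn1 lay -1.12 away, and the tetraspanin Cd9 was 1.60 above. Of the Abca4 relatives, Abca1, Abca2, Abca3 and Abca7 were all above the wild-type mean, by 0.20 to 1.67.

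**Figure D4:**
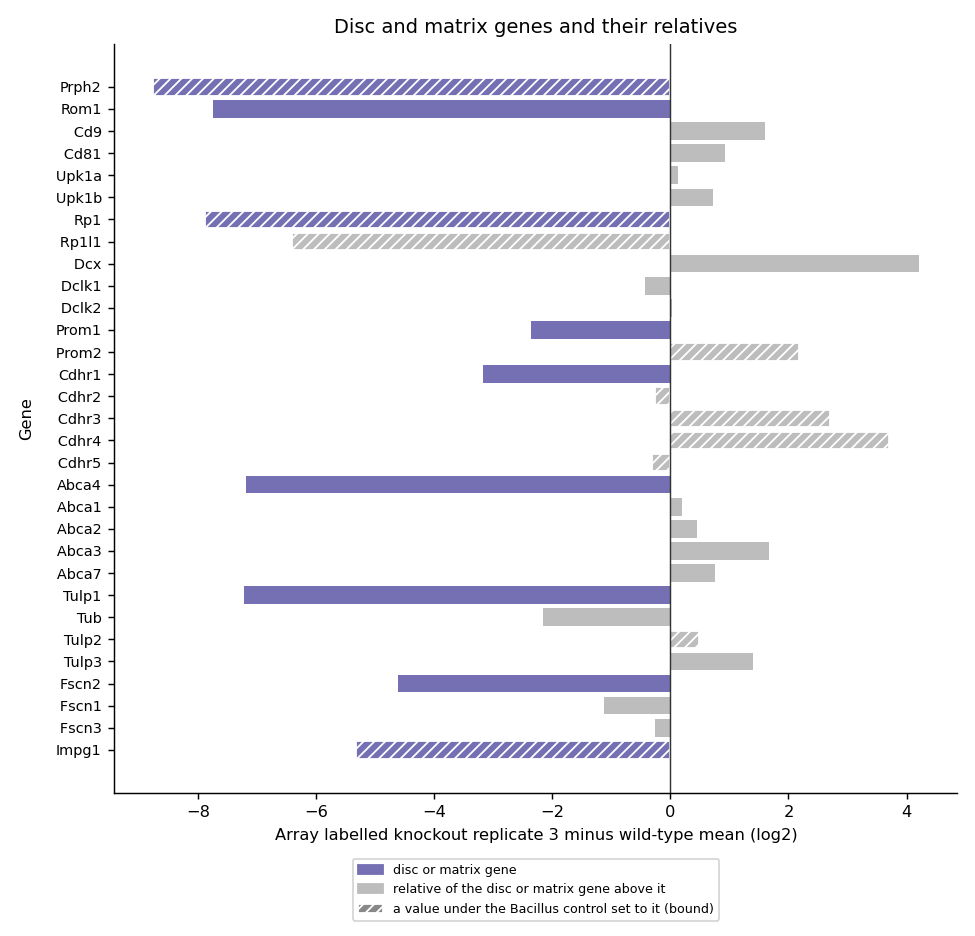
Array labelled knockout replicate 3 minus the wild-type mean (log2) for the disc and matrix genes (purple, brightest probe set) and their family relatives (grey), 1 array with no replicate. Readings under an array's highest Bacillus control are set to it, and the bars this touches are hatched. All 9 disc and matrix genes lie to the left of 0, from Prom1 (-2.36) to Prph2 (at -8.77, a bound), and of the relatives only Rp1l1 (-6.42, a bound) and Tub (-2.16) lie more than 2 below.

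Other genes of the outer segment and its cilium were spread widely in that array. Of the 30 outer segment and cilium genes, Rp1l1 is also among the relatives above and Cngb1 among the rod phototransduction genes. Of these 30, 10 lay more than 2 log2 units below the wild-type mean (3.70% of all probe sets did) and 1 as far above (5.38%). Their median was -0.89. The deepest were Rdh12, a retinal reductase of photoreceptors (at least 257-fold lower), and Crb1, of the photoreceptor and glial junctions (at least 147-fold lower). Intraflagellar transport genes lay near or above the wild-type mean, Ift88 at 0.62 and Ift140 at 0.75, as did the kinesin genes Kif3a (-0.13) and Kif17 (0.77). Rp2, a GTPase activator of Arl3, was 3.04 above. Rod phototransduction genes had a median of -8.38. With low readings set to the Bacillus control that median was -8.19, and 17 of 19 in place of 18 lay more than 2 below.

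With all 6 arrays no disc or matrix gene passed. By limma 0 of the 11 probe sets passed 0.05, as did 0% of all probe sets. At an unadjusted p under 0.05 stood 0 of the 11, against 1% of all. The brighter Nxnl2 probe set, at -5.85 (SE 1.54), did not pass either (adjusted p = 0.798 by limma). With 6 arrays, then, not even the gene of the genotype label passed. The median log2 change was -1.95 over the 11 probe sets and -0.02 over all, and ranged from -3.72 for Prph2 (SE 2.50) to -0.75 for the dimmer Rp1 probe set (SE 0.52), each with an adjusted p = 0.798. The 3 knockout-labelled arrays lay below all wild-type arrays for 1 of the 11, Prph2, where 4.54% of all probe sets were separated in that direction. Since the array labelled knockout replicate 3 lay below the others for all 11, this separation only repeats that of the 5 arrays. These means join knockout replicates 1 and 2 with the array labelled knockout replicate 3 and lie near neither.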

How the data were processed

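RNA was labelled as biotinylated cRNA and hybridised to 1-colour Affymetrix arrays, per the labels' protocols. The authors deposited log2 values. Per the submitters' processing notes these come from RMA, a method that removes background, equalises the arrays and gives 1 value per probe set; its software and version were not given in the labels. No further scaling was applied. The values cannot show a change in total RNA and hold no detection calls, and precision is limited by the small number of arrays.

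Of 45101 probe sets, 64 controls were left out. The annotation names 1 gene for 34945 of the rest (18193 genes, of which 18031 matched RefSeq by Entrez identifier), several for 932 and none for 9160. The genotypes were compared with limma 3.58.1 in R 4.3.3 (lmFit, eBayes, two-sided), knockout minus wild type, over 45037 probe sets with Benjamini-Hochberg adjustment. The procedure was tested on simulated data. Lists use each gene's probe set with the highest mean over the 6 arrays. High readings in the array labelled knockout replicate 3 favour that choice. Named genes are all disc and matrix probe sets, up to 3 per list with the smallest p, and the nearest profiles by root mean square distance; those named for the array labelled knockout replicate 3 were chosen after their values were seen, as were Rbp3, Crx, Nrl, Otx2, Omp and Scgb1a1. Fold bounds there set the wild-type mean against the higher of the value and the array's highest Bacillus control. Alternatives were other variance models, array weights, normalizations, a filter on dim probe sets, rules for several probe sets, a threshold of 0.1, the replicate number as a block and each array left out. The genes and lists were chosen with earlier results of these data known. Figures were drawn with matplotlib 3.10.9.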

Additional observations from a re-analysis of the deposited data

How the results depend on the processing

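No disc or matrix probe set passed in any of the settings tried with 5 or 6 arrays, and the count more than 2 log2 units below wild type in the array labelled knockout replicate 3 was 10 of 11 under every scaling and with any wild-type array left out, and 9 of 9 with the brightest probe set per gene. More than 1 log2 unit below lay 11 and more than 4 below lay 8. In the 5 arrays Prph2 was below 0 in all settings, and 113 of 126 changes of single genes had the same sign as reported. The 13 that did not came mostly from leaving out 1 array, which gave -0.17 to 0.10 for Rom1 (above 0 without knockout replicate 1, and 0.032 without wild-type replicate 2), -0.036 to 0.17 for Rp1 (below 0 without knockout replicate 1), -0.066 to 0.0061 for Prom1, -0.12 to 0.016 for Cdhr1 and -0.14 to 0.92 for Fscn2 (their signs turned without knockout replicate 2), -0.24 to 0.14 for Tulp1 (above 0 without knockout replicate 1) and -0.12 to 0.12 for Impg1 (above 0 without knockout replicate 2, at 0.10, or wild-type replicate 3). The others were Rp1 with the mean of its probe sets (-0.047) and Impg1 with centring on the 75th percentile (0.0061), array weights (0.046) or the replicate block (0.12). In the 5 arrays the block gives the same change as leaving out wild-type replicate 3, so that Impg1 reversal is counted under both settings. None of these passed, and each lies inside the interval given for its gene.

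Leaving out each array moved the 5-array median of the 11 probe sets between -0.17 and -0.010, the lowest without knockout replicate 2, and the count of all called probe sets between 4 and 11, with 11 without knockout replicate 1 and 9 without knockout replicate 2. Tested over genes, 2 passed with the brightest probe set and 1 with the mean of probe sets, where fewer features are tested. With 6 arrays, array weights or leaving out the array labelled knockout replicate 3 gave 5 called probe sets and a threshold of 0.1 gave 1; each array left out gave 0 to 5. The 6-array median was -0.10 with array weights, -2.45 with the brightest probe set per gene, -1.84 with the mean of probe sets, and -2.98 to -0.052 with each array left out. Array weights turned the 6-array change of Fscn2 to 0.53. With each array left out it was -2.38 to 0.39, and that of Rp1 was -4.49 to 0.066, both above 0 without the array labelled knockout replicate 3. The cause of these differences between settings was not tested. Labels give both genotypes the replicate numbers 1 to 3 without saying that a number marks a shared source, and deviations of same-numbered arrays correlated at -0.06, -0.03 and -0.10 in the 6 arrays, and at -0.07 and 0.15 for replicates 1 and 2 in the 5 arrays. With the replicate block Prph2 stood at -0.67 (limma adjusted p = 0.528) in the 5 arrays, and the block changed no call of a disc or matrix gene. The same -0.67 came without wild-type replicate 3, which has no same-numbered knockout array among the 5. Settings with a single knockout array take its spread from the wild-type arrays.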

Other observations

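Photoreceptor transcription factors gave no call in the 5 arrays, with a median log2 change of -0.06. Of 10 measured genes 8 were below 0, against 48.6% of all probe sets. Esrrb, an orphan nuclear receptor of rods, read 10.05 and 10.02 in knockout replicates 1 and 2, against 10.54 ± 0.07 (SD, n = 3) in wild type, which is -0.51 on the log2 scale (SE 0.10) with an adjusted p = 0.99998 by limma. Both knockout replicates lay below all wild-type arrays for Esrrb, as for 2 of the 10 genes, against 7.86% of all probe sets. Crx, which drives photoreceptor genes, stood at -0.02 (SE 0.09) and Nrl, which sets rod fate, at -0.02 (SE 0.11). In the array labelled knockout replicate 3 these read 3.95 and 4.04, below the highest Bacillus control of that array, while Otx2 read 9.78, against 11.42 ± 0.10 (SD, n = 3) in wild type.

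The 5 genes whose values over the 5 arrays, each minus its wild-type mean, lay closest to those of Prph2 were 6330415G19Rik, Ajuba, Etv5, Ttc25 and Folh1, at root mean square distances of 0.15 to 0.19. None of them is a photoreceptor gene of the lists used here, and they went different ways in the array labelled knockout replicate 3. There Ajuba, Etv5 and Ttc25 were 0.57, 1.24 and 1.63 above the wild-type mean, 6330415G19Rik was at -0.74, and Folh1, with a reading under the highest Bacillus control, was at least 4.73-fold lower. Over all 6 arrays, the 5 genes closest to the median disc and matrix profile were Pdzph1, Rnf207, A930003A15Rik, Lrit1 and Rp1l1, at distances of 0.05 to 0.13. Each read below the highest Bacillus control in that array and was at least 84.9-fold to 136-fold lower than the wild-type mean, so their order and distances rest partly on readings not told from background. Rp1l1 is the relative of Rp1 described above, and Lrit1 is a leucine-rich membrane protein of photoreceptors.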
